A study of Mus musculus with 8 samples.

Results

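The genes described here are 31 markers of cells that a sort of neural progenitors is meant to leave out: 12 genes of endothelial cells, 6 of mural cells and 13 of microglia. They were taken by gene symbol from a list of markers, and all 31 were found among the 53507 gene rows of each library. Their transcripts were counted by RNA sequencing of mouse brain cells carrying tdTomato, a red fluorescent marker protein, and the labels give the cell type as progenitors. There were 8 libraries in 4 groups, 2 per group: embryonic day 13 (E13) and embryonic day 15 (E15), both labelled wt, and postnatal day 12 (P12) after rearing in normal air (normoxia) or in 10% oxygen (hypoxia). Hypoxia lasted 8 days, from P3 to P11, and the foster mothers of the postnatal groups were exchanged at P6 and P9. The RNA input per library was 400 pg. The strain, the promoter or Cre behind tdTomato, the sort gate, the sex and the number of animals behind a library are not given in the sources used here. Nothing in the labels says that the 2 libraries of a group came from separate animals, so the p-values below measure only the spread between these libraries, which may be technical.

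Brain capillaries are tubes of endothelial cells, held together by claudin and cadherin junctions that form the blood-brain barrier and driven to sprout by vascular endothelial growth factor (VEGF) acting on receptor tyrosine kinases. Mural cells, that is pericytes on capillaries and smooth muscle cells on arterioles, wrap that tube and are recruited by platelet-derived growth factor acting on Pdgfrb. Microglia are the resident macrophages of the brain, derived from the yolk sac, and they depend on the receptor Csf1r. None of these cells descends from the neural stem cells of the cortex, so their transcripts are commonly used to judge how much RNA of other cells a sorted sample holds.

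Library totals lay between 36252027 and 47084796 counts in gene rows, and 11695 to 18318 genes per library had at least 10 counts. Levels are given as counts and as counts per mega-count (CPM) of a library size scaled by the trimmed mean of M-values (TMM), a method that sets most genes equal between libraries. The scaling factors were 0.639 to 0.846 at P12 and 1.32 to 1.38 in the embryo, so a count at P12 carried more CPM than an embryonic count. A count of 0 allowed up to 3 counts, which is 0.0953 to 0.111 CPM at P12 and 0.0482 to 0.0537 CPM in the embryo. Such limits reflect counting error alone, because without molecular identifiers several reads can come from 1 molecule. Across genes, which are not independent replicates, log2(CPM + 1) correlated between the 2 libraries of a group with r = 0.984 at E13, 0.988 at E15, 0.817 in normoxia and 0.705 in hypoxia. Of 12 genes of neural progenitors, such as Sox2, Pax6 and Fabp7, all 12 had at least 10 counts in each embryonic and normoxic library and 11 had them in each hypoxic library. Neuron genes were counted as well, 12 of 12 in each embryonic library and 7 to 12 at P12, and all 9 astrocyte genes were counted in each P12 library.

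The 31 markers were rare in every library. Their counts summed to 846 and 1292 at E13, 866 and 1067 at E15, 1042 and 3208 in P12 normoxia, and 1101 and 62 in P12 hypoxia (replicate 1, then replicate 2). These sums were 0.000147% to 0.00885% of a library's counts. The embryonic sums lay close together and the P12 sums did not: the lowest and the highest of all 8 were both P12 libraries. The members that made up the sums also differed with age, endothelial genes in the embryo and the single gene Pdgfrb in 3 of the 4 P12 libraries. In the fourth, replicate 2 of hypoxia, Acta2 had 30 of the 62 counts and Pdgfrb 17.

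**Figure D1:**
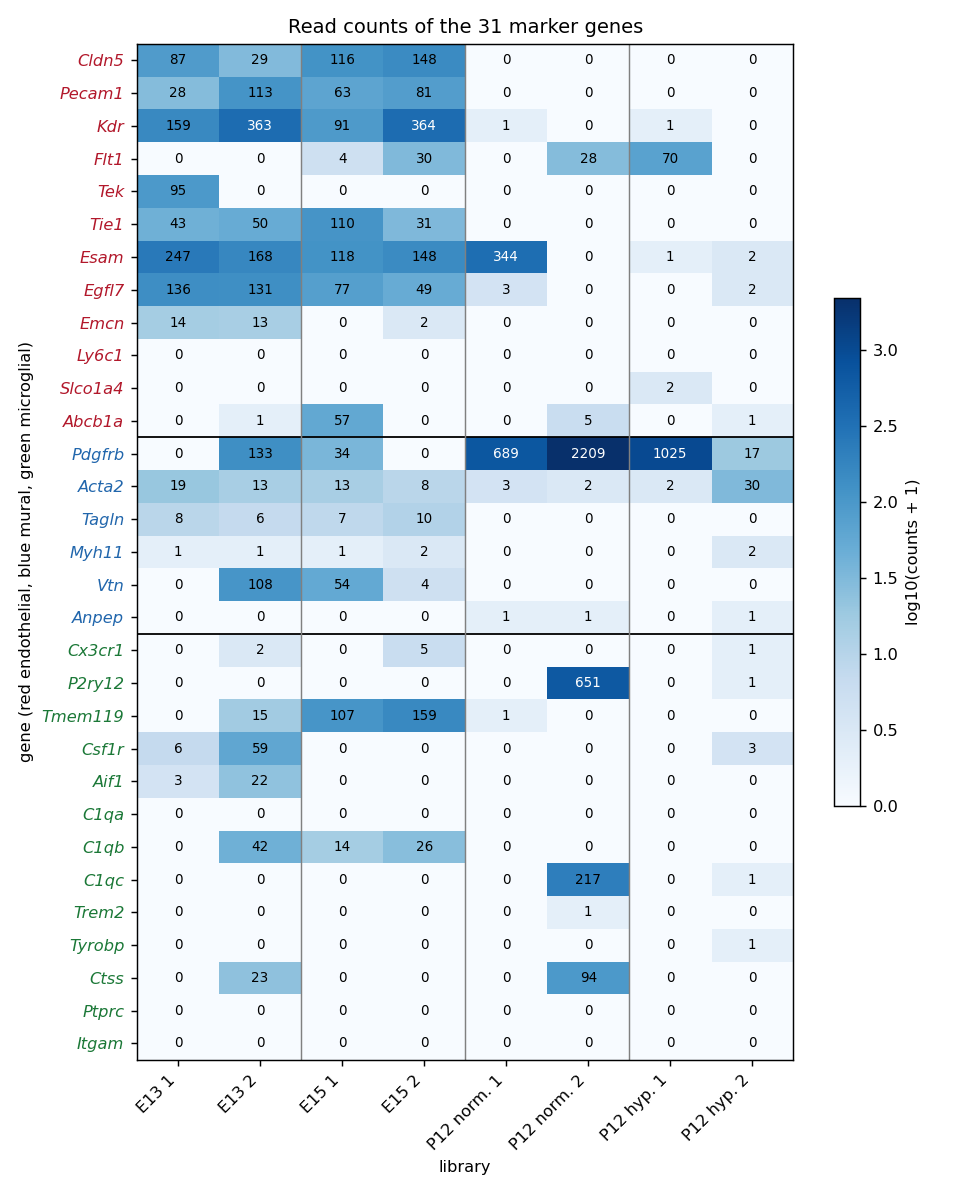
Read counts of the 31 markers (rows, coloured by class) in the 8 libraries (columns); the number in each cell is the count and the shade is log10(counts + 1). The endothelial rows from Cldn5 to Egfl7 are filled in the 4 embryonic columns apart from Flt1 and Tek, whereas Pdgfrb is the only row with at least 10 counts in all 4 P12 columns.

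A gene was called counted in a group when both of its libraries had at least 10 counts. By that rule 8 of the 31 markers were counted at E13 and 8 at E15, against 56.5% and 54.8% of the 21592 protein-coding genes. In P12 normoxia and in P12 hypoxia 1 marker was counted, Pdgfrb in both cases, against 46.4% and 35.3% of protein-coding genes. All 4 embryonic libraries had at least 10 counts for 6 markers (Cldn5, Pecam1, Kdr, Tie1, Esam and Egfl7), or 19.4% of the list against 53.1% of protein-coding genes. All 4 P12 libraries had them for Pdgfrb alone, 3.23% of the list against 33.5%. At P12 13 of the 31 markers had no count in any of the 4 libraries, 41.9% against 32.8% of protein-coding genes, which is near the background. The 4 markers Ly6c1, C1qa, Ptprc and Itgam had no count in any of the 8 libraries, 12.9% against 25.9%. A further 6 never reached 10 counts (Slco1a4, Myh11, Anpep, Cx3cr1, Trem2 and Tyrobp), so 10 of 31 stayed under 10 counts throughout, 32.3% against 31.3%.

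The endothelial markers counted in all 4 embryonic libraries were 6: the receptor kinases Kdr and Tie1, the junction proteins Cldn5, Pecam1 and Esam, and the secreted protein Egfl7. The sum of all 12 endothelial markers was 14.5 and 15.5 CPM at E13, 11.2 and 13.7 CPM at E15, 11.1 and 1.08 CPM in normoxia, and 2.49 and 0.185 CPM in hypoxia. The sum of normoxia replicate 1 came from Esam, which had 344 of the 348 counts. Per kilobase of exon, the only scale on which genes are compared with each other here, the highest endothelial marker reached 1.04 to 1.68 CPM per kb in the embryonic libraries. That was Cldn5 or Esam in each case. Among 18 further endothelial genes treated below, Mfsd2a was highest in these libraries, at 7.54 to 11.7 CPM per kb. The median of the 12 progenitor genes was 4.59 to 7.10 CPM per kb in the same libraries, and 23.9 to 41.1 CPM per kb at P12, where the median endothelial marker was 0 in all 4 libraries.

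Cldn5, the claudin that seals the junctions of the blood-brain barrier (chr16:18776847-18778262, plus strand, GRCm38), had 87 and 29 counts at E13, 116 and 148 at E15, and 0 in each of the 4 P12 libraries. Its level was 1.04 ± 0.735 CPM at E13 and 2.21 ± 0.237 CPM at E15 (SD, n = 2 libraries each). Pecam1, an adhesion molecule of endothelial junctions also called CD31 (chr11:106654217-106750628, minus strand), had 28 and 113 counts at E13, 63 and 81 at E15, and again 0 in all 4 P12 libraries. Both genes were counted in every embryonic library and listed at 0 in every P12 library, with no overlap between the ages.

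Kdr, the main VEGF receptor of endothelial cells (chr5:75932827-75978458, minus strand), had 159 and 363 counts at E13 and 91 and 364 at E15. At P12 it had 1 count in replicate 1 of normoxia, 1 in replicate 1 of hypoxia and 0 in the other two libraries. Its embryonic level of 4.66 ± 2.56 CPM at E13 and 3.73 ± 3.0 CPM at E15 (SD, n = 2) varied more between libraries than between the stages. Tie1, the receptor kinase that modulates angiopoietin signalling (chr4:118471191-118490061, minus strand), had 43 and 50 counts at E13, 110 and 31 at E15 and 0 in all 4 P12 libraries. Egfl7, a protein that endothelial cells secrete into their matrix (chr2:26580014-26593120, plus strand), had 136 and 131 counts at E13, 77 and 49 at E15, 3 and 0 in normoxia, and 0 and 2 in hypoxia. All 3 were higher in each embryonic library than in any P12 library. Egfl7 shares 7.37% of its exon bases with Gm20532 and 2.04% with the microRNA gene Mir126a, both on its own strand, and 1.79% with Agpat2 on the other, and the strand setting of the counting is not given in the sources used here. Agpat2 had at most 33 counts in a library and Gm20532 and Mir126a had 0.

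The stretches of DNA around the starts of 3 of these genes are shown because Cldn5, Kdr and Tie1 were lower together at P12 in the tests below. Each runs from 250 bases before to 50 bases after the start in RefSeq on GRCm38.p6, 5′ to 3′ on the gene's own strand. Capitals mark AGGAAG or CGGAAG, read on either strand. These are forms of GGAA, the core that ETS transcription factors bind and a common element of endothelial promoters. A stretch without capitals can still hold GGAA itself, as the Kdr stretch does.
Cldn5 promoter: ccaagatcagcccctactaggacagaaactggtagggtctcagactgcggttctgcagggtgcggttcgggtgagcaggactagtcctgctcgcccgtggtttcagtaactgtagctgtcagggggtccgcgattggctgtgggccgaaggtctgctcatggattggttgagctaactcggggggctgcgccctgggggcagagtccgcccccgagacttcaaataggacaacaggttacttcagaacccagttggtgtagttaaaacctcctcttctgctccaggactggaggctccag
Kdr promoter: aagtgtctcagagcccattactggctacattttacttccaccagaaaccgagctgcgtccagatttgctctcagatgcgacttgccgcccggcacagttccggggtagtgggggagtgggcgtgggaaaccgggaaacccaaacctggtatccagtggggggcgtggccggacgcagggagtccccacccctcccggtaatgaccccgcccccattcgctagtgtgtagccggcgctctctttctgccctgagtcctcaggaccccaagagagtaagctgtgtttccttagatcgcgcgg
Tie1 promoter: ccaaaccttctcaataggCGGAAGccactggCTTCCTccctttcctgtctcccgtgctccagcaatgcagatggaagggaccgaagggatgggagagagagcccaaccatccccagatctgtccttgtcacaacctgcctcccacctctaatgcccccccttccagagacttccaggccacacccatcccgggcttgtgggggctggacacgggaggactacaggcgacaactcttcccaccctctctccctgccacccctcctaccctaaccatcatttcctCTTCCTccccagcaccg
The Cldn5 stretch is chr16:18776597-18776896, the Kdr stretch is chr5:75978406-75978705 and the Tie1 stretch is chr4:118489800-118490099. The Tie1 stretch held 3 matches, and neither of the other two held any. Of all 32851 promoters of the same length in the table, 46.5% held at least 1 match. Promoters were listed for 22 of the 31 markers, and 8 of 13 endothelial, 8 of 10 microglial and 0 of 3 mural stretches held a match. These are matches of letters, not sites shown to be bound.

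Esam, an adhesion molecule of endothelial tight junctions (chr9:37528078-37538319, plus strand), departed from those 5 genes in 1 library, replicate 1 of normoxia. It had 247 and 168 counts at E13 and 118 and 148 at E15, 344 and 0 in normoxia, and 1 and 2 in hypoxia. The 2 normoxic libraries thus held the highest and the lowest count of all 8, 10.9 CPM and 0. The other endothelial markers were counted in few libraries. Flt1, the decoy VEGF receptor, had 4 and 30 counts at E15, 28 in normoxia replicate 2, 70 in hypoxia replicate 1 and 0 in the other four libraries. Tek, the angiopoietin receptor, had 95 counts in E13 replicate 1 and 0 in the other seven libraries. Emcn, a sialomucin of veins and capillaries, had 14 and 13 counts at E13, 0 and 2 at E15, and 0 at P12. The barrier transporter Abcb1a had 57 counts in E15 replicate 1 and at most 5 in any other library. Slco1a4, an anion transporter of the barrier, had 2 counts in all, and the surface antigen Ly6c1 had none. Abcb1a, Slco1a4 and Ly6c1 have close paralogs, and how reads matching several places were counted is not given in the sources used here.

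Pdgfrb held most mural counts in 3 of the 4 P12 libraries, and Acta2 held 30 of the 50 in the fourth, replicate 2 of hypoxia. The summed level was 0.501 and 4.65 CPM at E13, 1.92 and 0.386 CPM at E15, 22.0 and 72.1 CPM in normoxia, and 34.5 and 1.85 CPM in hypoxia. Pdgfrb, the platelet-derived growth factor receptor that recruits pericytes (chr18:61045150-61085061, plus strand), had 0 and 133 counts at E13, 34 and 0 at E15, 689 and 2209 in normoxia, and 1025 and 17 in hypoxia. Its mean level was 46.9 ± 35.4 CPM in normoxia, 17.6 ± 23.9 CPM in hypoxia, 1.19 ± 1.68 CPM at E13 and 0.299 ± 0.424 CPM at E15 (SD, n = 2). The 2 libraries of a group disagreed in all 4 groups, and hypoxia replicate 2, at 0.629 CPM, lay within the embryonic range.

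Contractile genes of smooth muscle were low throughout. Acta2, smooth muscle actin, had 19 and 13 counts at E13, 13 and 8 at E15, 3 and 2 in normoxia, and 2 and 30 in hypoxia. Tagln, an actin-binding protein of the same cells, had 8 and 6 counts at E13, 7 and 10 at E15, and 0 in all 4 P12 libraries. It shares 62.4% of its exon bases with an antisense gene, so its counts cannot be assigned with certainty. Myh11, smooth muscle myosin, had at most 2 counts in a library and Anpep, an aminopeptidase of pericytes, at most 1. Vtn, the matrix protein vitronectin made by pericytes, had 0 and 108 counts at E13, 54 and 4 at E15, and 0 at P12. Pdgfrb at P12 therefore came without any other of the 6 markers at 10 counts in 3 libraries, and with Acta2 in hypoxia replicate 2.

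**Figure D2:**
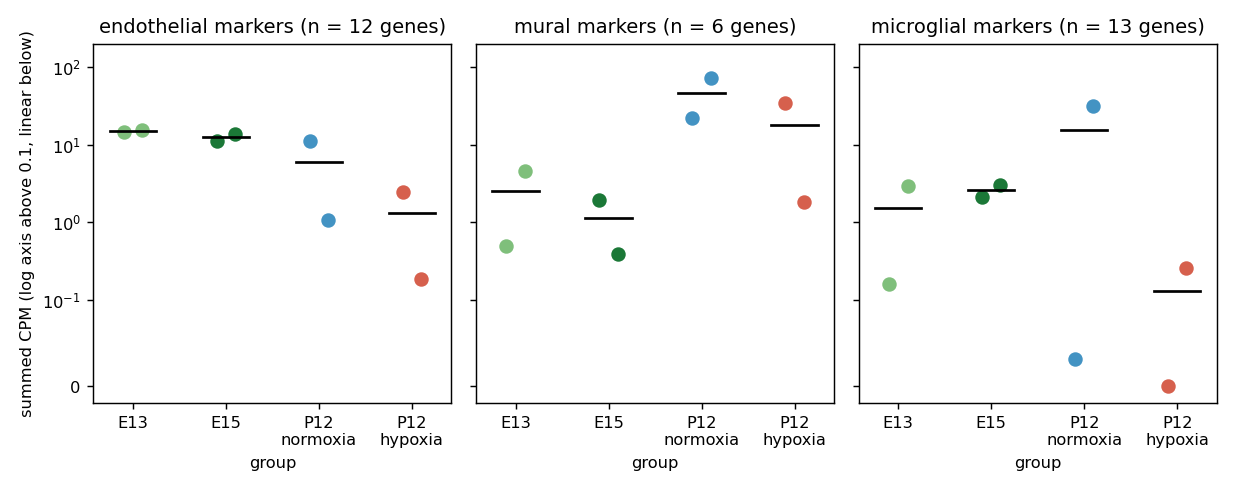
Summed CPM of the 12 endothelial, 6 mural and 13 microglial markers by group; each point is a library, the bar is the mean of the 2 libraries, and the y axis is logarithmic above 0.1 CPM and linear below. The 4 embryonic endothelial sums sit between 11.2 and 15.5 CPM, whereas the mural and microglial points of E13 and the P12 points of each class lie far apart within a group.

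The microglial markers were scattered over a few libraries, with no library holding the set. Their sums were 0.161 and 2.91 CPM at E13, 2.13 and 3.05 CPM at E15, 0.0318 and 31.4 CPM in normoxia, and 0 and 0.259 CPM in hypoxia. Of the 13, Cx3cr1, C1qa, Trem2, Tyrobp, Ptprc and Itgam stayed under 10 counts in every library. Itgam shares 68.7% of its exon bases with the gene Gm49368 on its own strand, which had 0 counts as well, so reads of either could be lost if shared reads were dropped.

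The high normoxic sum came from 3 genes in 1 library. P2ry12, the purinergic receptor by which microglia sense injury (chr3:59216272-59262871, minus strand), had 651 counts in normoxia replicate 2, 1 in hypoxia replicate 2 and 0 in the other six libraries. C1qc, a chain of complement C1q, had 217 counts in normoxia replicate 2, 1 in hypoxia replicate 2 and 0 in the other six. Ctss, the lysosomal protease cathepsin S, had 94 counts in normoxia replicate 2, 23 in E13 replicate 2 and 0 elsewhere. In the same normoxic library Cx3cr1, Csf1r, Aif1, C1qa, C1qb, Tmem119, Tyrobp, Ptprc and Itgam had 0 counts and Trem2 had 1. The genes of the 3 C1q chains lie in a row on chromosome 4, 2851 and 3616 bases apart, and in that library 1 of the 3 was counted. P2ry12 lies within Med12l on the other strand and shares 9 exon bases with it. Med12l had 596 counts in normoxia replicate 2 and 1250 to 2415 in the other three P12 libraries, where P2ry12 had 0 or 1.

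In the embryo other microglial genes were counted. Tmem119, a membrane protein of mature microglia, had 0 and 15 counts at E13, 107 and 159 at E15, 1 and 0 in normoxia, and 0 in hypoxia. C1qb, another C1q chain, had 0 and 42 counts at E13, 14 and 26 at E15, and 0 at P12. Csf1r, the colony-stimulating factor receptor, had 6 and 59 counts at E13, 0 at E15 and at most 3 at P12. Aif1, the calcium-binding protein also called Iba1, had 3 and 22 counts at E13 and 0 in the other six libraries. E13 replicate 2 thus held Csf1r, Aif1, C1qb, Ctss and Tmem119 together, 5 of 13 markers at 10 counts or more, the most in any library. Csf1r lies 15536 bases from Pdgfrb, and it shares 15.1% of its exon bases with Hmgxb3 on the other strand, which had 1347 to 4866 counts in every library.

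E13 replicate 2 also stood apart in genes of blood and connective tissue. Its 9 genes of red blood cells, such as the embryonic globin Hbb-y, held 2.38% of its counts, against 0.693% in E13 replicate 1 and at most 0.0114% in the other six libraries. Of 12 genes of fibroblasts and meninges, 10 had at least 10 counts there and 2 to 7 in the other libraries, among them the small proteoglycan Lum with 268 counts against 0 in the other seven. Among the markers it had 133 counts of Pdgfrb and 108 of Vtn, against 0 of each in replicate 1. The part of these other cells in the marker counts was not tested.

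Some markers were counted in 1 library of a group and nearly absent from the other. At least 50 counts in 1 library and at most 3 in the other were found for Tek, Pdgfrb and Vtn at E13, 3 of 31, against 1.23% of protein-coding genes. At E15 Abcb1a alone met this rule, against 1.08%. In normoxia Esam, P2ry12, C1qc and Ctss met it, 4 of 31 or 12.9%, against 6.51% of protein-coding genes. In hypoxia Flt1 alone met it, 3.23% of the markers against 7.34%, although only 2 markers passed 50 counts in either hypoxic library, the other being Pdgfrb. Few markers had enough counts to meet the rule, so these shares are descriptions of the libraries.

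**Figure D3:**
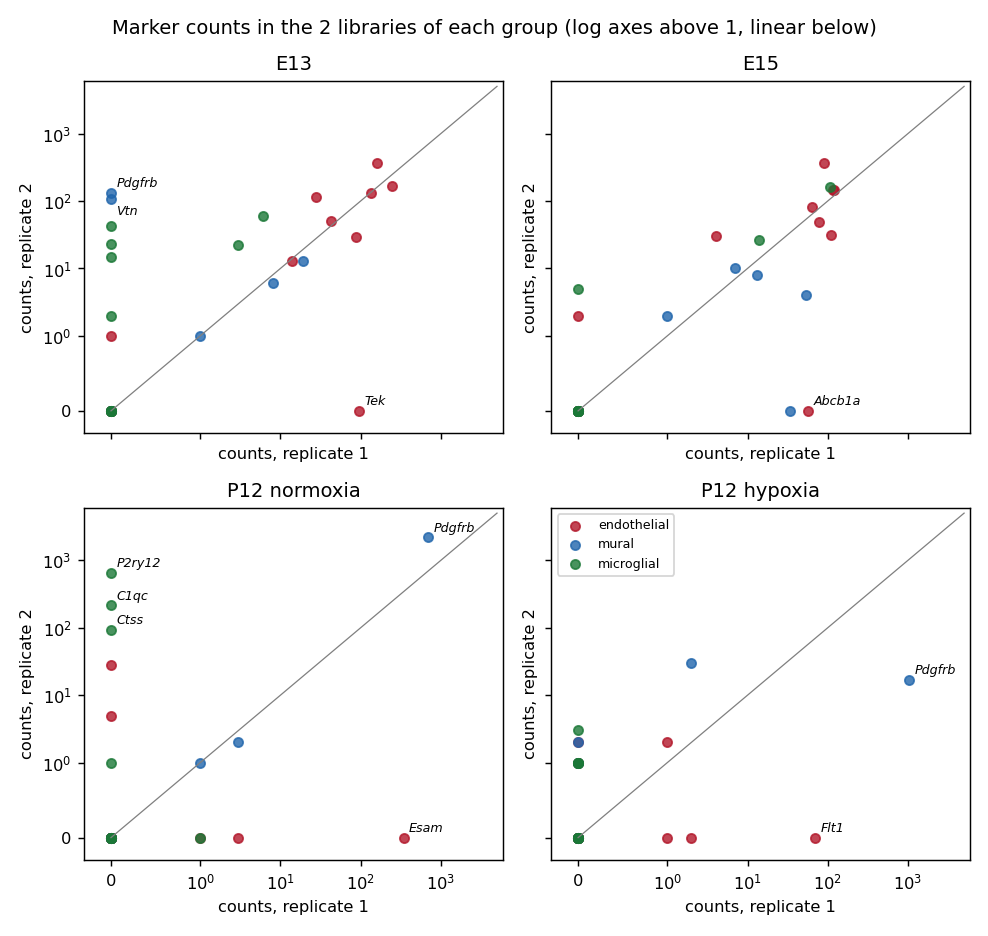
Counts of the 31 markers in replicate 1 (x axis) and replicate 2 (y axis) of each group, coloured by class, with axes logarithmic above 1 and linear below; the grey line marks equal counts. Labelled points have at least 50 counts in 1 library and at most 3 in the other, apart from Pdgfrb, which is labelled wherever it passes 50. Most embryonic endothelial points lie near the line, whereas in normoxia P2ry12 with 0 and 651 counts and Esam with 344 and 0 lie on opposite axes.

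Hypoxia was compared with normoxia at P12 to ask how the injury changes these cells, and for the markers no difference passed the test. A quasi-likelihood fit in edgeR over all genes and 8 libraries tested 19936 genes, and its p-values were adjusted after Benjamini and Hochberg across those genes, with a threshold of 0.05. A filter on low counts kept 14 of the 31 markers: 8 endothelial (all but Tek, Ly6c1, Slco1a4 and Abcb1a), Pdgfrb, Acta2 and Vtn of the mural genes, and Tmem119, C1qb and Ctss of the microglial genes. The other 17 have counts and no test. Of the 14 tested markers 0 were called in edgeR, and 0 had an unadjusted p under the threshold, while 3.02% of all tested genes were called. Among them Cldn5, Pecam1, Tie1, Emcn, Vtn and C1qb had 0 counts in all 4 P12 libraries, and Kdr and Egfl7 at most 3. These markers passed the filter through the embryo, so the test could not call them here. When only the 2 compared groups were fitted, the filter kept 2 markers. The absence of calls is therefore no result about hypoxia. DESeq2 called 1 marker, Esam, lower in hypoxia, and limma-voom called 0. Without normoxia replicate 2, edgeR also called Esam, whose normoxic group is then the library with 344 counts alone. The log2 fold change of Esam was -6.60 (SE 2.83, adjusted p = 0.293, edgeR), between 344 and 0 counts on one side and 1 and 2 on the other. Pdgfrb differed by -1.42 (SE 2.88, adjusted p = 0.925, edgeR). For no marker did both hypoxic libraries lie above both normoxic ones, against 8.72% of protein-coding genes, nor below them, against 15%. The SE of Esam and of Pdgfrb was over 2.8 on the log2 scale, so a difference of that size in either gene was not detectable with these libraries.

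E15 was compared with E13 as 2 stages of cortical neurogenesis. No marker was called in edgeR and 0 of the 14 tested had an unadjusted p under the threshold, beside 0 genes called of 19936, or 0% of them. DESeq2 called 373 genes and limma-voom 935, and both called 0 markers, although limma-voom gave 5 markers (Cldn5, Egfl7, Emcn, Flt1 and Tmem119) an unadjusted p under the threshold. Both E15 libraries lay above both E13 libraries for Cldn5, Flt1 and Tmem119, 3 of 31 or 9.68%, against 17.3% of protein-coding genes. Both lay below for Esam, Egfl7, Emcn, Acta2, Csf1r and Aif1, 6 of 31 or 19.4%, against 17.3%, which is near the background. Tmem119, with 0 and 15 counts at E13 and 107 and 159 at E15, had a log2 difference of 4.03 (SE 2.14, adjusted p = 1, edgeR).

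P12 cells were compared with embryonic cells, the mean of E13 and E15, separately for normoxia and hypoxia. The 2 comparisons share the 4 embryonic libraries, so they are not independent and their values are given side by side. In each, 4 endothelial markers were called lower at P12 in edgeR, Cldn5, Kdr, Pecam1 and Tie1, and 0 markers were called higher, with 0 higher at an unadjusted p under the threshold. DESeq2 called 1 marker higher, Pdgfrb in normoxia, and limma-voom called 0 in either direction. Of all tested genes, 17.8% were called in normoxia in either direction and 5.68% were called lower. In hypoxia 26.1% were called and 12.9% were called lower. Called higher were 2408 of the 19936 tested genes in normoxia and 2630 in hypoxia. The 4 markers are 4 of 31, of which 14 were tested, so their share cannot be set directly against these shares of tested genes. A gene at 0 in one age passes the low-count filter only through the other age, and had to differ once it passed. For Cldn5, Pecam1 and Tie1, and for Rgs5, Eng, Cdh5 and Foxf2 below, the p-values are therefore given only as the output of the fit. The counts in each library are the evidence for these genes. The same holds for Kdr, with 1 count in each P12 group, and for Vwf, Cemip and the globin genes below. In such bulk samples fewer cells of a type and less RNA per cell cannot be told apart.

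Against a floor of 3 counts per library, Cldn5 was at least 16.8-fold lower in normoxia (adjusted p = 0.0398, edgeR) and at least 15.3-fold lower in hypoxia (adjusted p = 0.0313, edgeR). Pecam1 was at least 12.8-fold lower in normoxia (adjusted p = 0.0472, edgeR) and at least 11.6-fold lower in hypoxia (adjusted p = 0.0381, edgeR). Tie1 was at least 10.6-fold lower in normoxia (adjusted p = 0.0488, edgeR) and at least 9.67-fold lower in hypoxia (adjusted p = 0.0395, edgeR). Kdr had 977 counts in the embryo and 1 in each P12 group. The ratio of embryo to P12 was 263 in normoxia (95% counting interval 47.1 to 10400) and 240 in hypoxia (43 to 9490), at adjusted p = 0.0410 and 0.0324 in edgeR. Each of these genes was lower in 4 of 4 P12 libraries.

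These calls lie close to the threshold. None of the 4 was called in either comparison by limma-voom, with a replicate block, or when any 1 of the 4 embryonic libraries was left out. In normoxia none was called without normoxia replicate 1, which left Esam as the single marker called, or without normoxia replicate 2. In hypoxia Kdr alone was called without hypoxia replicate 1, and no marker without hypoxia replicate 2.

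All 4 P12 libraries lay below all 4 embryonic libraries for 6 markers, the 4 called ones with Egfl7 and Tagln, 19.4% of the list against 12.7% of protein-coding genes. For no marker did all 4 lie above, against 11%. Egfl7 had an embryo to P12 ratio of 35.3 in normoxia (95% counting interval 12 to 172; adjusted p = 0.114, edgeR) and 48.3 in hypoxia (13.3 to 400; adjusted p = 0.0832, edgeR). Esam had an embryo to P12 ratio of 55.8 in hypoxia (95% counting interval 19 to 271), at adjusted p = 0.161 in edgeR. DESeq2 called Esam lower in that comparison. In normoxia the log2 fold change of Esam was 0.93 (SE 1.82, adjusted p = 0.763, edgeR). Tmem119 had 281 counts in the embryo, 1 in normoxia (adjusted p = 0.213, edgeR) and 0 in hypoxia (adjusted p = 0.117, edgeR). Pdgfrb had a log2 fold change of 6.29 (SE 2.63, adjusted p = 0.156, edgeR) in normoxia against the embryo and 4.87 (SE 2.50, adjusted p = 0.194, edgeR) in hypoxia. The call of Pdgfrb by DESeq2 in normoxia had an adjusted p of 0.0358. In hypoxia its value was 0.09 without replicate 1, so that difference rests on 1 library.

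**Figure D4:**
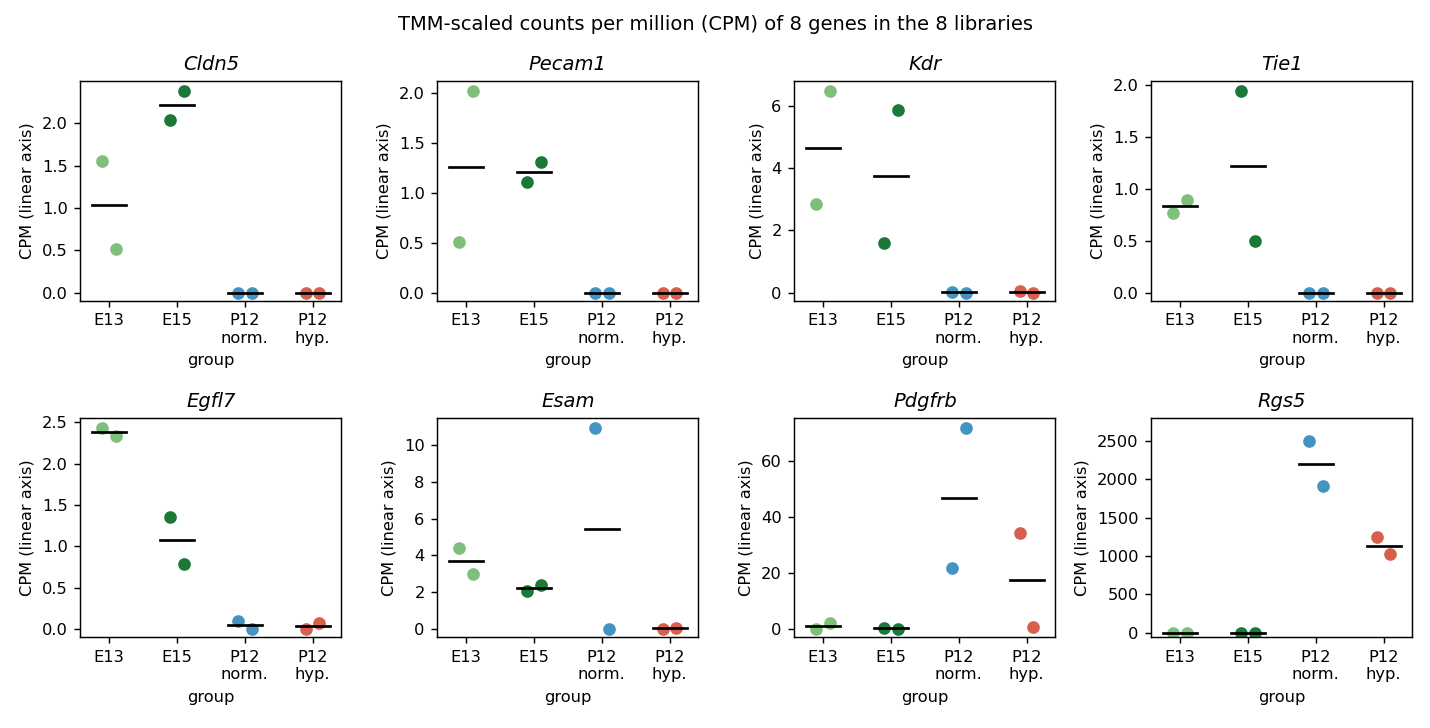
TMM-scaled CPM of 7 markers and of Rgs5 in the 4 groups, on linear axes that differ between panels; each point is a library and the bar is the mean of the 2. Cldn5, Pecam1, Kdr, Tie1 and Egfl7 are near or at 0 in all 4 P12 libraries, the Esam and Pdgfrb points of P12 lie far apart, and Rgs5 lies between 1021 and 2501 CPM at P12 and at 0 in the embryo.

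Other genes of the same cells gave a mixed picture. Of 18 further endothelial genes, 15 were tested. In normoxia 1 was called lower than in the embryo, Eng, and 1 higher, Emp1, and in hypoxia Eng, Cdh5 and Podxl were called lower and Emp1 and Vwf higher. Eng, a TGF-beta co-receptor, had 65, 71, 45 and 19 counts in the embryonic libraries and 0 at P12, at least 9.13-fold lower in normoxia (adjusted p = 0.0430, edgeR) and at least 8.32-fold lower in hypoxia (adjusted p = 0.0342, edgeR), and the call was lost under 9 of 14 alternatives in each. Cdh5, the cadherin that defines endothelial junctions, had 41, 68, 25 and 8 counts in the embryonic libraries and 0 in all 4 P12 libraries. It was at least 6.51-fold lower in normoxia (adjusted p = 0.0577, edgeR), and at least 5.93-fold lower in hypoxia (adjusted p = 0.0474, edgeR). Vwf, the clotting factor of endothelial granules, had 685 and 3158 counts in hypoxia, 1 and 0 in normoxia, and at most 5 in the embryo. Vwf passed the low-count filter only through hypoxia, so its counts are the evidence. Hypoxia differed from normoxia in Vwf by 11.86 on the log2 scale (SE 2.12), which did not pass in edgeR (adjusted p = 0.0667). DESeq2 called Vwf with Itm2a, Plvap and Podxl. Plvap and Podxl were lower in hypoxia, at -10.06 and -5.46 in edgeR, and Itm2a was higher, at 6.98. Plvap had 0 and 187 counts in normoxia and 0 in hypoxia. For Itm2a, Plvap and Podxl alike, 1 library held nearly all P12 counts. In the same 2 hypoxic libraries Cldn5, Pecam1, Tie1, Cdh5 and Eng were at 0. Hypoxia replicate 1 had 1491 counts of the lipid transporter Mfsd2a, 1090 of Itm2a and 761 of Ramp2. Replicate 2 had 7 to 10 of each. In the embryonic libraries Mfsd2a had 963 to 1473 counts, Itm2a 205 to 336 and Ramp2 1 to 50. In normoxia Mfsd2a had 4 and 123 counts, Itm2a 8 and 1, and Ramp2 4 and 128. The summed level of the 18 genes was 366 and 189 CPM in hypoxia, 71.1 and 119 CPM in normoxia, and 46.1 to 68.7 CPM in the embryo. Of these sums Emp1 alone held 230 and 70.7 CPM in hypoxia, 64.0 and 105 CPM in normoxia, and 0.846 to 3.55 CPM in the embryo. Vwf held 23.0 and 117 CPM in hypoxia. Most of each normoxic sum was thus Emp1, and most of the sum in hypoxia replicate 2 was Vwf. Podxl, a sialomucin also made outside vessels, had 461 to 1048 counts in the embryo, 201 and 2 in normoxia, and 2 in each hypoxic library. Emp1, a membrane protein found in many cell types, had 2016 and 3224 counts in normoxia, 6837 and 1912 in hypoxia and 48 to 221 in the embryo. It was higher at P12 by 5.51 (SE 0.78) in normoxia and 6.34 (SE 0.80) in hypoxia on the log2 scale (adjusted p = 0.00793 and 0.00422, edgeR).

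Of 14 further mural genes, 8 were tested. Rgs5 and Cspg4 were called higher at P12 in both comparisons, and in hypoxia Notch3 was also called higher and Foxf2 lower. Rgs5, a G protein regulator used as a pericyte marker, had 78758 and 58489 counts in normoxia, 36887 and 27610 in hypoxia, and 0 in all 4 embryonic libraries. It was at least 42300-fold higher in normoxia than in the embryo (adjusted p = 0.000324, edgeR) and at least 21700-fold higher in hypoxia (adjusted p = 0.000296, edgeR), with no overlap between the ages. Among other pericyte genes, Kcnj8, Abcc9, Des and Higd1b had 0 counts in all 4 P12 libraries, as did Vtn. Abcc9, Des and Higd1b had 0 counts in the embryo as well, and Kcnj8 had 31 in E15 replicate 2 alone. Atp13a5 had 1 and 36 counts in normoxia, 0 and 516 in hypoxia and 0 in the embryo, and Mcam, an adhesion molecule, had 1 and 323 in normoxia, 0 in hypoxia and 16 to 78 in the embryo. Mylk, the myosin light chain kinase, had 15 and 408 counts in hypoxia, 0 in normoxia and 19 in 1 embryonic library. Notch3, a receptor of mural cells, had 5 and 105 counts in normoxia, 490 and 14 in hypoxia, 28 and 42 at E13 and 0 at E15. DESeq2 called Atp13a5 and Notch3 in both comparisons with the embryo. Foxf2, a transcription factor of brain pericytes, had 11 to 69 counts in the embryo and 0 at P12. Cspg4, also a gene of oligodendrocyte progenitors, had 1098 and 646 counts in normoxia, 115 and 578 in hypoxia and 1 to 72 in the embryo. It was higher by 5.78 (SE 1.35) in normoxia and 4.64 (SE 1.30) in hypoxia on the log2 scale (adjusted p = 0.0374 and 0.0470, edgeR). Oligodendrocyte lineage genes moved with it: of 10, 7 were called higher in normoxia and 8 in hypoxia, Cspg4 being in both lists. Of all 19936 tested genes, 2408 were called higher in normoxia and 2630 in hypoxia. The part of the oligodendrocyte lineage in the Cspg4 result was not tested.

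Of 18 further genes of microglia and other macrophages, 7 were tested and edgeR called 0 of them in any of the 4 comparisons. At an unadjusted p under the threshold there were 3 in normoxia and 2 in hypoxia against the embryo and 0 in the other two comparisons. DESeq2 called 3 in each comparison with the embryo, and limma-voom called 1 in normoxia against the embryo. Siglech, Fcrls and Gpr34, receptors that define microglia, had 0 counts in all 8 libraries. Normoxia replicate 2, the library with P2ry12 and C1qc, also had 125 counts of Fcer1g, 85 of Selplg and 276 of Cd4. The other 11 of 12 lymphocyte and granulocyte genes had 0 counts there.

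**Figure D5:**
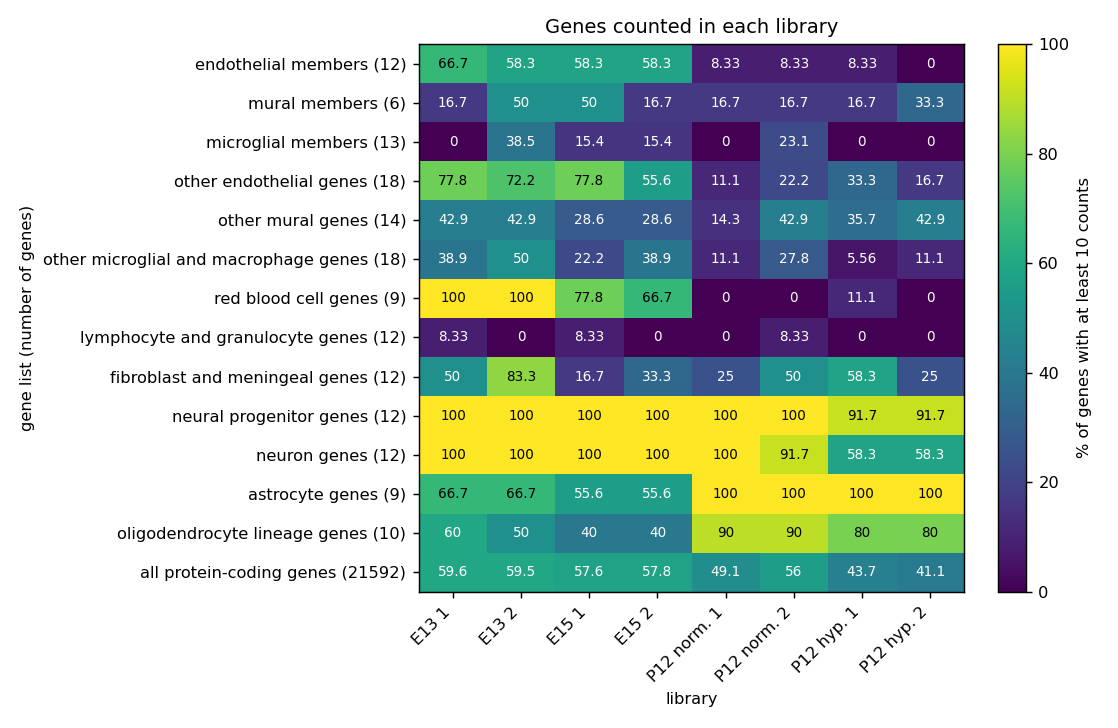
Percentage of the genes of each list (rows, with the number of genes) that had at least 10 counts in each library (columns). Endothelial markers stand at 58.3% to 66.7% in the embryonic libraries and at 8.33% or 0% at P12, microglial markers never pass 38.5%, and the progenitor genes stay at 91.7% to 100% throughout.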

How the data were processed

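Raw counts of reads per gene were deposited, in a separate file for each library. Per the submitters' processing notes the authors used cutadapt, STAR and Subread with GRCm38, and their versions, the gene annotation, the strand option and the treatment of reads matching several places are not given in the sources used here. Of 55487 rows, 1980 named no gene (0.205% to 0.266% of counts) and were left out. Coordinates, gene types and exon lengths come from GENCODE M21, which 96.4% of gene rows matched.

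Counts were fitted in R 4.3.3 with edgeR 4.0.16 (TMM, filterByExpr with minimum count 10 and minimum total 15, glmQLFit and glmQLFTest, two-sided, 4 residual degrees of freedom, all 8 libraries in 1 fit of the 4 groups). An SE is the fold change divided by the root of its F statistic. Alternatives were DESeq2 1.42.0, voom with quality weights per sample (limma 3.58.1), relative log expression scaling, no filter, a replicate block, only the compared groups, and leaving out each library. Python 3.11.15, pandas 2.3.3, numpy 2.4.6, scipy 1.17.1 and matplotlib 3.10.9 made the rest. The fit was also run on simulated counts, whose outcome is not reported here, so no support is drawn from that run. Bounds use 3 counts per library, and ratios have exact 95% counting intervals. Replicates are numbered as in the titles; the P12 files carry other numbers, so equal numbers show no pairing.

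The markers, the other lists and the tests were chosen with earlier results of these data known. Values per library are given for called markers and for the 4 markers of highest mean CPM in each class, and from the other endothelial and mural lists for the called genes, which adds Podxl to the planned 4 of smallest p per list. Other genes named were chosen after their values were seen. A result of the other lists that names a withheld item is not reported here.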

Additional observations from a re-analysis of the deposited data

How the results depend on the processing

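The number of markers called depended on the fit. For hypoxia against normoxia at P12 it was 0, 1 with DESeq2 and 0 to 1 with 1 library left out; for E15 against E13 it was 0 under all 14 alternatives. For normoxia against the embryo it was 4, 0 without the low-count filter, 0 with limma-voom, 0 with the replicate block and 0 to 4 with 1 library left out. For hypoxia against the embryo it was 4, 1 without the filter, 0 with limma-voom, 0 with the replicate block and 0 to 6 with 1 library left out. DESeq2 called 6 in both, and 6 were called in hypoxia from the compared groups alone. The cause was not tested. Libraries of equal number did not deviate together (r from -0.0444 to 0.0137 over 6 pairs of groups), so the replicate block pairs nothing but numbers.

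Calls over all genes moved too. For hypoxia against normoxia they were 602, 295 without the filter, 3981 with DESeq2, 0 with limma-voom, 1 with the replicate block, 0 from the compared groups alone, 0 without any 1 embryonic library and 922 to 3018 without any 1 P12 library, the highest without hypoxia replicate 1. For normoxia against the embryo they were 3541, 2363 without the filter, 7252 with DESeq2, 1705 with the replicate block, 6731 from the compared groups, 928 to 975 without any 1 embryonic library, and 1747, without normoxia replicate 1, to 5990, without hypoxia replicate 1. For hypoxia against the embryo they were 5208, 9001 with DESeq2, 2390 with limma-voom, 2868 with the replicate block and 1562 to 1611 without any 1 embryonic library. The shares of called genes given beside the markers rest on these counts. Relative log expression scaling moved the median log2 fold change of all genes in hypoxia against the embryo from -0.43 to -0.22 and kept the 4 markers called in both comparisons.

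The summed CPM of a class at P12 rested on single genes and libraries. The log2 ratio to the embryo was -1.18 for the endothelial sum in normoxia, -4.16 without Esam and -3.67 to -0.31 with 1 library left out; in hypoxia it was -3.36, and -6.21 to -2.46. For the mural sum it was 4.66 in normoxia, -3.32 without Pdgfrb and 3.56 to 5.65 with 1 library left out; in hypoxia it was 3.29, -0.80 without Pdgfrb and -0.012 to 4.28. For the microglial sum it was 2.93 in normoxia, and -6.02 to 3.93; in hypoxia it was -3.99, and -4.38 to -2.99, with no value without hypoxia replicate 2, since the remaining library had 0 counts. Where a group was left with 1 library, that library was assumed to vary like the others.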

Other observations

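Red blood cell genes held 0.693% and 2.38% of the counts at E13 and at most 0.0114% elsewhere. Of 9 genes with a row, 6 were called lower at P12 in both comparisons with the embryo (Hba-a1, Hba-x, Hbb-y, Hba-a2, Hbb-bt and Hbb-bs) in edgeR, where 5.68% of all tested genes were called lower in normoxia and 12.9% in hypoxia. DESeq2 called 7 and 6 of the 9, and limma-voom called 0 in both. These 6 genes passed the low-count filter only through the embryo, so their counts are the evidence. Hbb-y, the embryonic beta-like globin, had 142314 and 494208 counts at E13, 24 and 8 at E15, and 0 in all 4 P12 libraries. Alas2, the heme synthesis enzyme of red cells, had 128 counts in hypoxia replicate 1, where the other 8 genes of the list had 0. The globin paralogs share reads, so their split is uncertain.

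Among 12 genes of fibroblasts and meninges, Pdgfra and Col1a1 were called higher and Cemip lower at P12 in both comparisons in edgeR. DESeq2 called these 3 among 6 in both, and limma-voom called Pdgfra alone. Of the 12 genes 8 were tested. Of all 19936 tested genes, edgeR called 2408 higher in normoxia and 2630 in hypoxia. Pdgfra is also a gene of the oligodendrocyte lineage list, of whose 10 genes 7 were called higher in normoxia and 8 in hypoxia, and their part in the Pdgfra result was not tested. Col1a2 had 1974 and 1268 counts in normoxia and 3591 and 6 in hypoxia, and Lum had 0 in all 4 of those libraries.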
